A study of Mus musculus with 60 samples.

Results

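Genes of the hemidesmosome and of its ligand laminin-332 were followed in 60 skin carcinoma samples from 55 mice. The 7 genes, Col17a1, Dst, Itga6, Itgb4, Itga3, Lama3 and Lamb3, were chosen by name with earlier results of these data known. Every probe set (a group of short probes that together give 1 value) annotated with exactly 1 of these symbols was taken. This found 14 of the 45101 probe sets on the array: 4 for Dst, 3 for Itga3, 2 each for Itga6 and Lama3, and 1 each for Col17a1, Itgb4 and Lamb3. Of these, 13 passed the filter on dim values, which asks for a value over the median of its array in 8 or more arrays and kept 25408 probe sets in all. The exception was Lama3 1444860_at, which lay at 2.80 to 3.73 and over the array median on 0 arrays.

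All mice were FVBBX, the offspring of [SPRET/Ei X FVB/N] hybrids crossed back to FVB/N, and all tumours followed treatment of the back skin with DMBA, which starts tumours, and TPA, which promotes them. Each sample is called a tumour here, although SCC 3 and SCC 4, and the tumours 6 and 7 without a histology label, share a tumour number in the labels and may be samples of 1 tumour. By the histology label, 14 spindle carcinomas came from 13 mice and 38 squamous cell carcinomas (SCC) from 35 mice, and 8 tumours from 7 mice had no such label. The SCC mice were graded well (13), moderately (13) or poorly (9) differentiated. The spindle carcinomas were labelled poorly differentiated, except spindle 6, which was labelled moderately differentiated. The labels also give sex, with both sexes present, and an origin with several values. The p53 label called 14 mice mutant and 41 not, and the nodal label called 15 mice positive and 19 negative and was missing for the rest. Whole tumours were profiled, so fewer cells of a type and less RNA per cell cannot be told apart. Values are deposited log2 expression, and tumours of the same mouse were averaged unless single tumours are named.

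Hemidesmosomes rivet basal keratinocytes to the basement membrane. Integrin α6β4 (Itga6, Itgb4) and the transmembrane collagen XVII (Col17a1) cross the cell membrane. Inside the cell, plectin and the epithelial form of dystonin (Dst, also BPAG1) tie them to keratin filaments, and outside it laminin-332, which holds the chains of Lama3 and Lamb3, is the ligand. Integrin α3 (Itga3) pairs with β1 and binds the same laminin. Dst also gives larger forms, best known from nerve and muscle, that start at other promoters.

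RefSeq windows from 250 bases before to 50 after a transcript start (build GRCm38.p6) were found for 4 of the 7 genes, 7 windows in all. Those of Dst are shown because its probe sets differed in opposite directions and its transcripts start at separate places, and that of Col17a1 because it is the gene with the largest difference. Lamb3 has 2 overlapping windows, chr1:193301744-193302043 with 0 matches and the one shown, which holds all 3 of its matches. Capitals mark matches on either strand to AP-1 (TGANTCA), the E-box of ZEB and SNAIL type factors (CACCTG), TEAD (CATTCC) or the Sp1 GC box (GGGCGG).
Dst, chr1:34011345-34011644, plus strand: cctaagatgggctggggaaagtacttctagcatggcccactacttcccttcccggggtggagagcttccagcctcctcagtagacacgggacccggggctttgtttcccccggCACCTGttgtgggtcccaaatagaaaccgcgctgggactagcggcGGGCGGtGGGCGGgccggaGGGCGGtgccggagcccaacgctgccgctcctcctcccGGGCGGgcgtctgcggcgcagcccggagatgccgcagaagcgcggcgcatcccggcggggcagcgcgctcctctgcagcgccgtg
Dst, chr1:34160010-34160309, plus strand: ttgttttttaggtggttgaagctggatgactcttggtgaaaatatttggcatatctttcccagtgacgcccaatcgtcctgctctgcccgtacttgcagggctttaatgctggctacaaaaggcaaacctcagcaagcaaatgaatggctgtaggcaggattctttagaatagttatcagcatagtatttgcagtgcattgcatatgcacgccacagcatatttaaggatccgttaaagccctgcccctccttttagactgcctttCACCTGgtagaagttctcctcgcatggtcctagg
Lamb3, chr1:193301993-193302292, plus strand: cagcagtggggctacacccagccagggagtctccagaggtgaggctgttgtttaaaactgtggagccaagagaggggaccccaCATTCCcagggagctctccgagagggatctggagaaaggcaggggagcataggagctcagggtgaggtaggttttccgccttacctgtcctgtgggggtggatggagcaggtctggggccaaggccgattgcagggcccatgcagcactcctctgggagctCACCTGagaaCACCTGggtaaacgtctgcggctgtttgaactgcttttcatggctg
Col17a1, chr19:47691993-47692292, minus strand: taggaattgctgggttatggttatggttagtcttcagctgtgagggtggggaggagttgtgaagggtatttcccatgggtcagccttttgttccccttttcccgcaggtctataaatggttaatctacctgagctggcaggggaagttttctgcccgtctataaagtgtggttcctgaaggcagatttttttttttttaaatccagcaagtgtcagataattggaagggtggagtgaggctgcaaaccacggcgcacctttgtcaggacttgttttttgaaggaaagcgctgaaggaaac
Both Dst windows held an E-box match, starting at -137 from the transcript start in the upstream one and at 17 in the downstream one, and the upstream one also held 4 GC boxes. The Lamb3 window shown held E-box matches at -6 and 5 and a TEAD match at -167, and the Col17a1 window held 0 matches. Over the 7 windows the E-box was in 4, the GC box in 3, and AP-1 and TEAD in 1 each. Of all 32851 windows of this length, 20.2% held the E-box, 35.7% the GC box, 7.81% AP-1 and 14.7% TEAD. A match describes letters and not binding.

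The first comparison set spindle carcinomas against SCCs. Of the 13 tested member probe sets, 12 passed the threshold (limma, Benjamini-Hochberg adjusted p under 0.05 over all tested probe sets), where 22.1% of all tested probe sets did. 10 fell in spindle carcinomas, a direction taken by 8.57% of all, and 2 rose, as did 13.5% of all. Both that rose were Dst probe sets, and the other 2 Dst probe sets fell. The median difference of the 13 was -1.16, against 0.03 over all tested probe sets. Because the genes were chosen with earlier results of these data known, the shares over all probe sets describe and do not test the set.

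**Figure D1:**
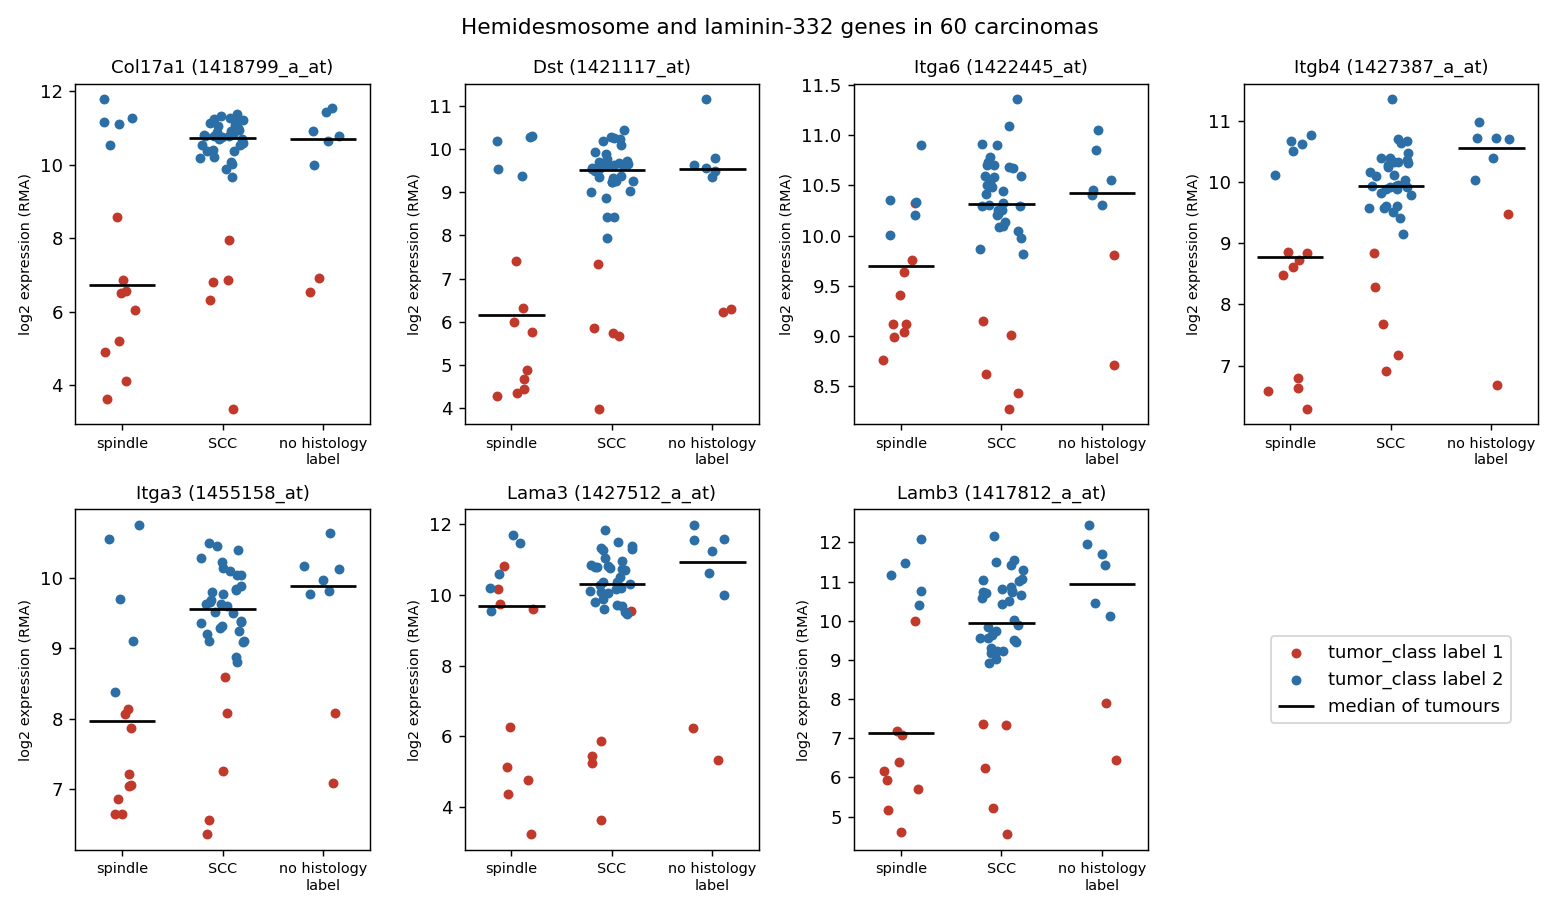
Log2 expression (y axis, RMA) of 1 probe set for each of the 7 genes in spindle carcinomas, SCCs and tumours without a histology label (x axis). Each point is a tumour, coloured by its tumor_class label, and the black line is the median of the tumours. For Col17a1 the 16 tumours of label 1 lie at 3.37 to 8.57 and the 44 of label 2 at 9.67 to 11.78.

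Col17a1 lay at 4.13, 6.87 and 11.78 (lowest, median and highest of 13 mice) in spindle carcinomas and at 3.37, 10.78 and 11.37 (35 mice) in SCCs. The ranges overlapped, and 10 of the 13 spindle mice were below the SCC median. The means were 7.76 ± 2.61 in spindle carcinomas and 10.25 ± 1.60 in SCCs (SD), a difference of -2.49 ± 0.60 (standard error, limma, adjusted p = 0.0024). This was the largest of the 13 differences.

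The integrin subunits differed less. Itgb4, whose long cytoplasmic tail binds plectin, lay at 6.30, 8.85 and 10.76 in spindle carcinomas and at 6.92, 9.93 and 11.35 in SCCs (lowest, median and highest), a difference of -1.16 ± 0.35 (limma, adjusted p = 0.013). Here 4 spindle mice lay below every SCC mouse, while 4 lay above the SCC median. Its partner Itga6 (1422445_at) lay at 8.76, 9.64 and 10.91 in spindle carcinomas and at 8.27, 10.41 and 11.36 in SCCs, a difference of -0.55 ± 0.21 (limma, adjusted p = 0.046). The other Itga6 probe set, 1422444_at, gave -0.70 ± 0.25 (adjusted p = 0.040). Neither Itga6 call held without the filter on dim values, with mouse as a random effect, with origin as a covariate, or without 9 arrays of conflicting sex markers (limma, adjusted p between 0.057 and 0.10). Of those arrays 3 showed the markers of the sex opposite to their label, and 6 showed both female and male markers. Itgb4 also missed the threshold without those 9 arrays (-0.88, adjusted p = 0.064).

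Itga3 fell by all 3 of its probe sets. By 1455158_at it lay at 6.65, 7.87 and 10.75 in spindle carcinomas and at 6.47, 9.59 and 10.48 in SCCs, a difference of -1.27 ± 0.32 (limma, adjusted p = 0.0036). The ranges overlapped, with 10 of 13 spindle mice below the SCC median. The other probe sets gave -1.05 ± 0.26 (1421997_s_at) and -0.96 ± 0.29 (1460305_at).

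Of the laminin-332 chains, Lamb3 lay at 4.60, 7.19 and 12.09 in spindle carcinomas and at 4.55, 10.02 and 12.16 in SCCs, a difference of -1.77 ± 0.60 (limma, adjusted p = 0.028). Without the 9 arrays of conflicting sex markers it was -1.48 (adjusted p = 0.082). Lama3 (1427512_a_at) lay at 3.23, 9.65 and 11.68 in spindle carcinomas and at 3.63, 10.32 and 11.83 in SCCs, and its difference of -1.69 ± 0.66 missed the threshold (limma, adjusted p = 0.056). For both chains the ranges overlapped almost wholly, and 9 of 13 spindle mice were below the SCC median. Lama3 passed without the array SCC 24 (-1.88, adjusted p = 0.016), without 4 arrays that nearly match an array of another mouse (-1.87, adjusted p = 0.026) and with the p53 label as a covariate (-1.83, adjusted p = 0.028). It also passed as the mean of both Lama3 probe sets (-0.91, adjusted p = 0.034).

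Whether the genes differed from each other in this comparison was tested, as a comparison added after the data were seen, by permuting the histology labels over mice (100000 permutations, two-sided, p adjusted over 27 pairs of probe sets, 14 of which passed). Col17a1 fell more than Itga6 (Col17a1 difference minus Itga6 difference -1.94 ± 0.63, adjusted p = 0.0020) and more than Itgb4 (-1.33 ± 0.48, adjusted p = 0.0056). Dst 1421117_at fell more than Itga6 (-1.59 ± 0.52, adjusted p = 0.0020) and Itgb4 (-0.98 ± 0.35, adjusted p = 0.011). Lama3 and Lamb3 were not told apart (0.08 ± 0.47, adjusted p = 0.817), nor were Itgb4 and Itga3 (0.11 ± 0.30, adjusted p = 0.635). Probe sets can differ in how steeply they follow the amount of RNA, so these are differences as measured.

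The Dst probe sets split. By 1421117_at Dst lay at 4.35, 6.32 and 10.29 in spindle carcinomas and at 3.99, 9.54 and 10.44 in SCCs, a difference of -2.14 ± 0.51 (limma, adjusted p = 0.0022). 11 of 13 spindle mice were below the SCC median, and by 1450119_at, where the difference was -1.65 ± 0.38 (adjusted p = 0.0018), again 11 were. By 1423626_at Dst lay at 6.77, 8.66 and 9.17 in spindle carcinomas and at 6.45, 7.21 and 9.13 in SCCs, a difference of 1.10 ± 0.21 (limma, adjusted p = 4.1e-04). Here 12 of 13 spindle mice were above the SCC median, and by 1421276_a_at, where the difference was 0.99 ± 0.18 (adjusted p = 2.6e-04), 11 were. The differences of 1421117_at and 1423626_at were themselves apart (the first minus the second -3.24 ± 0.83, adjusted p = 8.1e-04, permutation of histology labels). Averaged into 1 value, the 4 Dst probe sets gave -0.42 and did not pass (limma, adjusted p = 0.054).

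From mouse to mouse the same split was seen. Over 55 mice 1421117_at correlated with 1450119_at at r = 0.96 and 1421276_a_at with 1423626_at at r = 0.87, whereas 1421117_at and 1423626_at had r = -0.75. That last value was -0.68 within the 35 SCC mice and -0.72 within the 13 spindle mice, but 0.28 within the 44 tumours of tumor_class label 2. The label 2 value is over single tumours and not mouse means. Those tumours spanned a narrower range (SD of 1421117_at 0.57, against 1.93 over all tumours), which can weaken r. The probe sets share arrays, so these values are descriptions. Over the 55 mice 1423626_at was most like Tns2 (0.89), Ap1m1 (0.88) and Phldb1 (0.88), 1421276_a_at most like Map1s (0.88), Wls (0.86) and AI837181 (0.86), and 1421117_at most like Trp63 (0.95), Mpzl2 (0.95) and Pkp1 (0.95). The annotation ties 1421117_at and 1450119_at to 1 transcript record and the others to 1 record each, and which Dst form each one reads is not given in the sources used here.

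**Figure D2:**
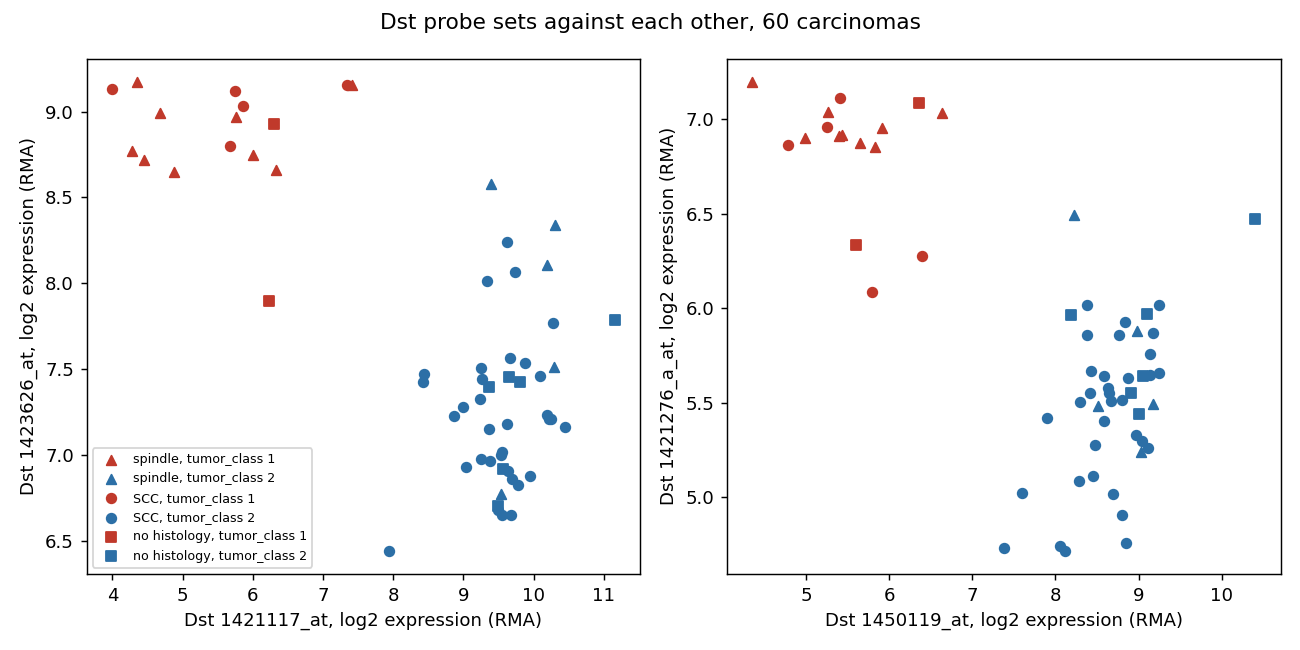
Log2 expression (RMA) of Dst probe sets in 60 tumours, 1421117_at (x) against 1423626_at (y) on the left and 1450119_at (x) against 1421276_a_at (y) on the right, with marker shape for histology and colour for the tumor_class label. On the left the label 1 tumours lie at 3.99 to 7.41 on the x axis and 7.90 to 9.17 on the y axis, and the label 2 tumours at 7.95 to 11.16 and 6.45 to 8.58.

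Muscle and nerve markers, of tissues that carry other Dst forms, were measured beside it. Of 9 striated muscle markers 0 passed the threshold (limma), and their mean level was 4.91 to 9.37 in spindle mice and 5.53 to 10.63 in SCC mice. Of 7 tested Schwann cell markers Ncam1 rose (1.20) and Erbb3 (-1.98) and Mbp (-0.77) fell, and their mean level was 6.45 to 7.27 in spindle mice and 6.53 to 7.50 in SCC mice. Their part in the Dst differences was not tested.

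Keratinocyte markers fell with the members. All 9 tested were lower in spindle carcinomas (limma), with a median difference of -2.16, among them Trp63 (-2.71), which maintains basal keratinocytes, Krt5 (-2.45), Epcam (-2.25) and Krt15 (-2.17). Their mean level was 5.79, 8.32 and 11.43 in spindle mice and 4.60, 11.27 and 11.75 in SCC mice (lowest, median and highest). Of 11 fibroblast markers Pdgfra (1.69) and Dcn (1.17) rose and Thy1 (-0.83) fell, with a mean level of 8.81 to 11.39 in spindle mice and 8.62 to 11.52 in SCC mice. Of 8 macrophage markers C1qc rose (0.83), of 5 tested T cell markers Cd8a fell (-0.25), and of 9 endothelial markers 0 passed. The Cd8a probe set was dim, with means of 4.73 in spindle and 4.98 in SCC mice, near the array medians of 4.43 to 4.56. The other Cd8a probe sets did not pass the filter on dim values. The mean level of the macrophage markers was 8.63 to 10.56 in spindle mice and 7.51 to 10.58 in SCC mice, that of the T cell markers 4.67 to 5.62 in spindle mice and 4.69 to 5.99 in SCC mice, and that of the endothelial markers 5.46 to 7.42 in spindle mice and 5.83 to 8.01 in SCC mice. The part of these cell types in the member differences was not tested.

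The partners of the hemidesmosome did not all fall. Krt5 (-2.45) and Krt14 (-2.10), the keratins it anchors, did. Plec, the plectin that binds Itgb4, rose by 0.56 ± 0.13 (limma, adjusted p = 0.0014). Cd151, a tetraspanin that associates with laminin-binding integrins, had a difference of 0.26 ± 0.15 (limma, adjusted p = 0.206) and did not pass.

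The list of other laminin chains, which also holds the laminin-related netrin Ntn4, had 7 tested genes with a median difference of 0.57. Lamc1 (0.84), Lamb1 (0.77) and Lamb2 (0.63), chains of other laminins, rose, and Lama5 (-0.52) fell (limma). Of 11 tested basement membrane and anchoring genes Nid1 (0.83) and Col4a5 (0.55) rose and Fbln1 (-1.10) fell, with a median of -0.01. The Col4a5 probe set was dim, over the array median on 21 of 60 arrays. Col7a1, the collagen of the anchoring fibrils, had a difference of -0.65 ± 0.32 (limma, adjusted p = 0.136) and did not pass.

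Among 20 other integrin and focal adhesion genes, which serve actin-linked contacts, 9 rose and 1 fell. The largest rises were of Fermt2 (0.96), a kindlin that activates integrins, Itgb5 (0.76), Itga5 (0.76), part of the fibronectin receptor, and Itgb3 (0.71). Itgb6 (-0.72), an epithelial subunit, fell, and its probe set was dim, over the array median on 25 of 60 arrays. Of 9 tested genes for cleavage of laminin-332 or collagen XVII, Mmp14 (0.66) and Adam9 (0.53) rose and Adam17 (-0.29) fell (limma). These counts stand beside 22.1% of all tested probe sets, or 26.5% of genes with 1 probe set each.

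The members divided the tumours more sharply by a label given as tumor_class. Its meaning is not given in the sources used here and it may rest on expression, so values by it are a description. Label 1 was on 9 of 14 spindle carcinomas, 5 of 38 SCCs and 2 of 8 tumours without histology. Ranked by the mean standardised value of the 7 genes, the 16 tumours of label 1 were the 16 lowest, from -2.24 (SCC 24) to -0.45 (spindle 11), and the next tumour, SCC 7, had 0.13.

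Col17a1 lay at 3.37 to 8.57 in label 1 tumours and 9.67 to 11.78 in label 2 tumours, and Dst 1421117_at at 3.99 to 7.41 in label 1 and 7.95 to 11.16 in label 2 tumours. Neither overlapped. Altogether 4 of the 13 member probe sets had no overlap, these and Dst 1450119_at and Itga3 1421997_s_at, as did 0.638% of all tested probe sets (0.527% with label 1 below, 0.11% with label 1 above). Itgb4 overlapped narrowly, at 6.30 to 9.47 in label 1 and 9.15 to 11.35 in label 2 tumours. The mean level of the keratinocyte markers was 4.60 to 9.75 in label 1 and 10.42 to 11.75 in label 2 tumours, and that of the macrophage markers 9.44 to 10.84 in label 1 and 7.51 to 10.24 in label 2 tumours. Their part in the split was not tested.

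Lama3 did not follow in every tumour. It lay at 3.23 to 10.81 in label 1 and 9.46 to 11.98 in label 2 tumours. In 5 label 1 tumours it was at label 2 levels: spindle 3 (10.16), spindle 4 (9.60), spindle 8 (9.75), spindle 11 (10.81) and SCC 4 (9.54). Col17a1 there was 6.05 in spindle 3, 6.57 in spindle 4, 3.64 in spindle 8, 8.57 in spindle 11 and 7.95 in SCC 4, below every label 2 tumour. Lamb3 was 7.19, 6.40, 7.09, 9.98 and 6.24 in the same tumours, and only spindle 11 reached the label 2 range of 8.92 to 12.45.

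The histologies were also compared within a label. Among label 2 tumours Col17a1 was 10.52 to 11.78 in 5 spindle carcinomas and 9.67 to 11.37 in 33 SCCs, with a spindle minus SCC difference of 0.44 ± 0.21 (limma, adjusted p = 0.373). That fit called 0 members and 0.00394% of all tested probe sets. Among label 1 tumours Col17a1 was 3.64 to 8.57 in 9 spindle carcinomas and 3.37 to 7.95 in 5 SCCs, with a difference of -0.16 ± 0.86 (adjusted p = 0.961), and 0 members and 0.0% of all passed. Itga6 1422445_at there had 0.75 ± 0.26 (adjusted p = 0.245), of opposite sign to that over all tumours. These fits rest on few tumours, and a p that misses the threshold does not show that the histologies are alike.

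**Figure D3:**
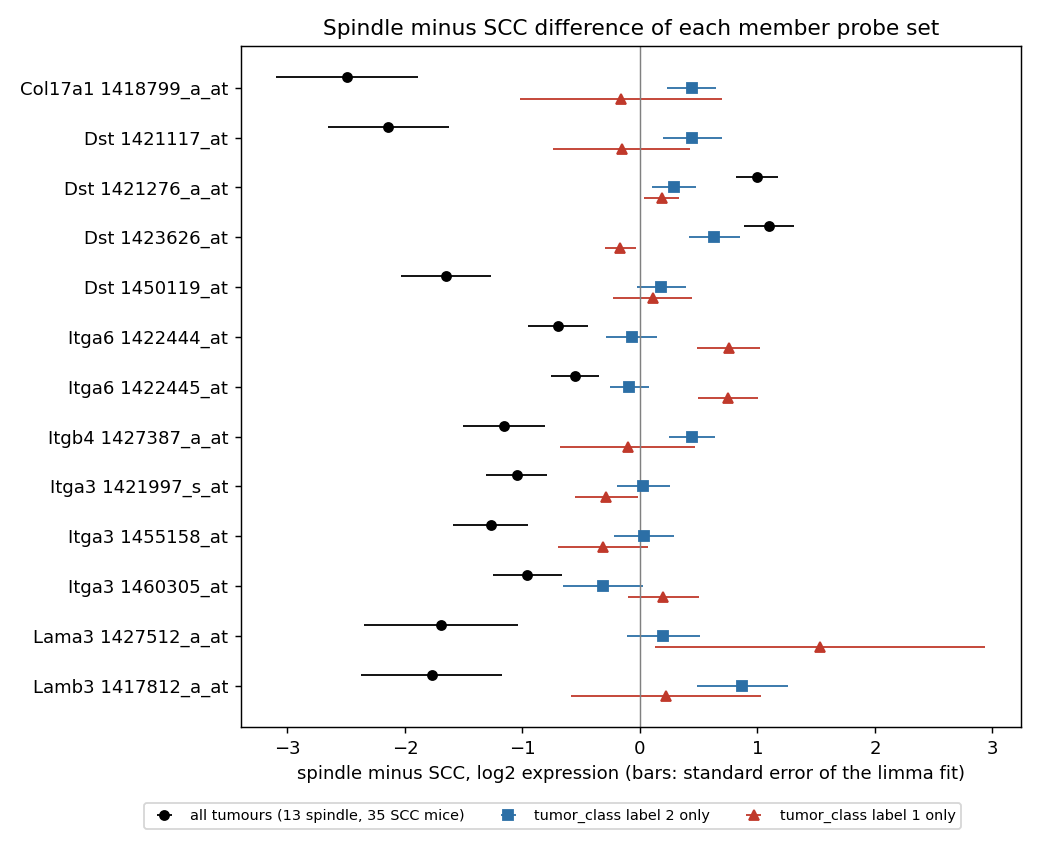
Spindle minus SCC difference in log2 expression (x axis) of the 13 tested member probe sets (y axis), with the standard error of the limma fit as bars, for all tumours (black circles), tumor_class label 2 (blue squares) and label 1 (red triangles). Over all tumours the differences run from -2.49 (Col17a1) to 1.10 (Dst 1423626_at), and within label 2 from -0.31 (Itga3 1460305_at) to 0.87 (Lamb3).

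Over the 55 mice the 21 pairs of the 7 genes (1 probe set each) correlated at r = 0.77 to 0.96 (median 0.86), as a description over shared arrays. The median was 0.81 in 35 SCC mice and 0.84 in 13 spindle mice. In the 44 label 2 tumours it was 0.32, with the highest value, 0.82, between the laminin chains Lama3 and Lamb3. Itga6 1422445_at and Itgb4, partners in 1 integrin, had 0.32 there. The label 2 values are over single tumours and not mouse means. Label 2 tumours also spanned a narrower range (Col17a1 SD 0.47, against 2.26 over all tumours), and a narrower range can lower r.

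Outside the 7 members, the genes most like their mean over 55 mice were Trp63 (0.96), Tgfa (0.95), Sfn (0.95), Pkp1 (0.94) and Krt5 (0.94) by Pearson r. Next came Plek2 (0.94), Plch2 (0.94), Fam83h (0.94), Cdcp1 (0.93) and Mpzl2 (0.93). Trp63 and Krt5 mark basal keratinocytes, Pkp1 is a desmosomal plakophilin and Tgfa is a ligand of the EGF receptor. The most opposed were Ubtd1 (-0.87), Cdkn2c (-0.86), Ift57 (-0.85), Sorbs3 (-0.85) and Igsf5 (-0.85). Within the 35 SCC mice the most alike were Trp63 (0.95), Krt5 (0.94), Plek2 (0.94), Sfn (0.93), Fam83g (0.93), Lad1 (0.92), Pkp3 (0.92), Mpzl2 (0.91), Ptprf (0.91) and Tgfa (0.91), of which Lad1 encodes ladinin, a basement membrane zone protein. There the most opposed were P2ry10b (-0.89), Gm2115 (-0.87), Arsj (-0.86), Capn6 (-0.85) and Camk1g (-0.84).

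Samples that the labels give to the same mouse differed widely in 3 of 5 pairs, those with 1 tumour of each label. Spindle 8 and spindle 9 had Col17a1 at 3.64 and 11.27, Dst 1421117_at at 4.29 and 10.31 and Lamb3 at 7.09 and 10.40, but Lama3 at 9.75 and 9.55. SCC 22 and SCC 23 had Col17a1 at 6.87 and 10.20 and Lama3 at 5.86 and 11.26. The tumours no histology 6 and no histology 7 had Col17a1 at 6.91 and 10.64 and Lama3 at 5.32 and 9.99. In each of these pairs Dst 1423626_at was higher in the tumour with less Col17a1.

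Of the other pairs, SCC 3 and SCC 4, both of label 1, had Col17a1 at 6.82 and 7.95 but Lama3 at 5.24 and 9.54. SCC 7 and SCC 8, both of label 2, had Col17a1 at 10.18 and 10.59. Over all tested probe sets the arrays of spindle 8 and spindle 9 correlated at r = 0.82. Those of SCC 22 and SCC 23 had 0.89, while SCC 22 and SCC 21, of another mouse, had 0.98. Spindle 8 and SCC 24 are among the 9 arrays of conflicting sex markers. Whether spindle 8 and spindle 9, and SCC 22 and SCC 23, truly come from 1 mouse each was not tested.

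**Figure D4:**
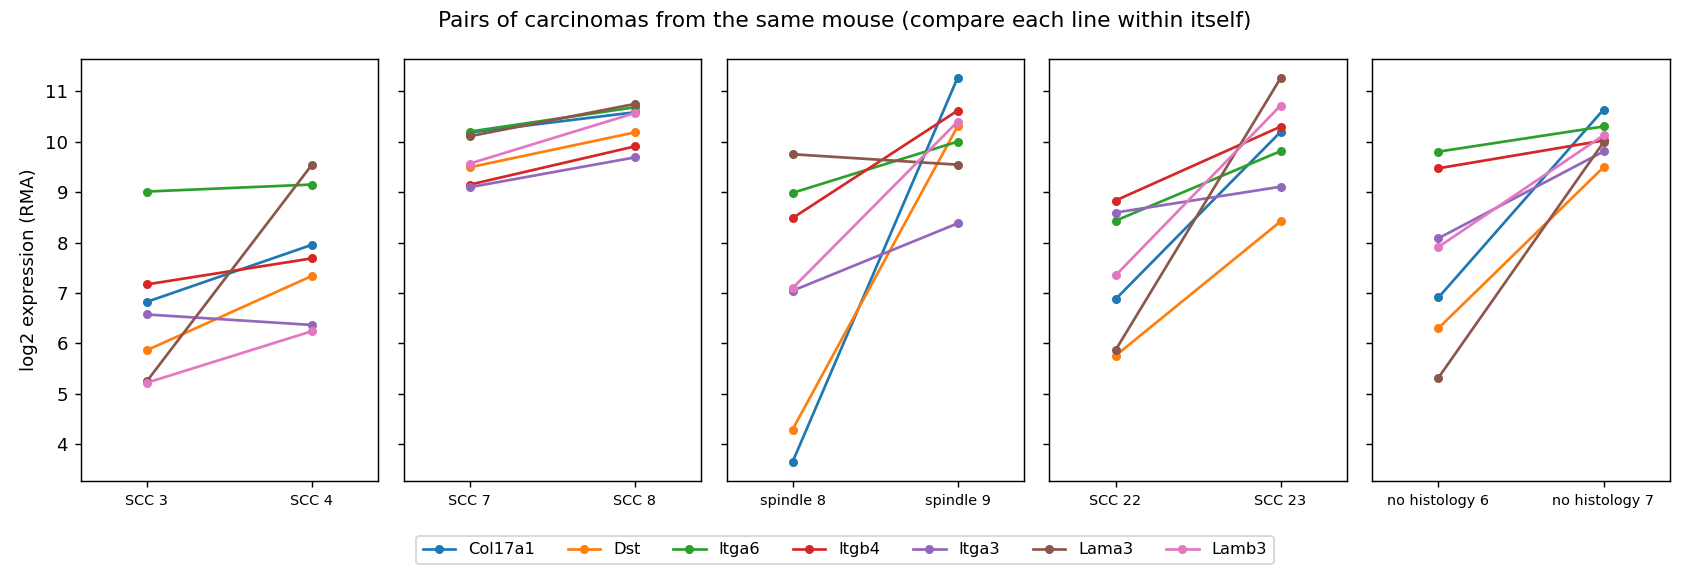
Log2 expression (y axis, RMA) of 1 probe set for each of the 7 genes (coloured lines) in the 5 pairs of samples labelled as from the same mouse (x axis, 1 panel a pair), where each line is read along itself only. The Col17a1 line joins 3.64 in spindle 8 and 11.27 in spindle 9, and 10.18 in SCC 7 and 10.59 in SCC 8.

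Against poorly differentiated SCCs (9 mice), 0 members and 0.0% of all tested probe sets passed. All 13 members had an unadjusted p under 0.05, as did 16.8% of all, but 3 did without the 9 arrays of conflicting sex markers, as did 9.57% of all, and the median member difference was then -0.85, against -1.26 with them. Col17a1 averaged 7.76 ± 2.61 in spindle carcinomas and 10.21 ± 1.56 in poorly differentiated SCCs, a difference of -2.45 ± 0.81 (limma, adjusted p = 0.131). Without the 4 near-identical arrays, which include the poorly differentiated SCC 21, 8 members passed and 2.79% of all. Col17a1 was then -2.94 (adjusted p = 0.042), and the others were the 4 Dst and 2 Itga6 probe sets and Itga3 1421997_s_at.

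Grade within SCCs showed 0 called members and 0.0% of all in each comparison of grades. Of the 13 members 0 had an unadjusted p under 0.05, against 4.85% of all for poor minus well, 7.66% for poor minus moderate and 2.2% for moderate minus well. Col17a1 averaged 9.91 ± 2.19 in well, 10.62 ± 0.75 in moderately and 10.21 ± 1.56 in poorly differentiated SCCs (SD, 13, 13 and 9 mice), and Lamb3 averaged 9.48 ± 2.05, 9.92 ± 0.89 and 10.40 ± 1.43 in the same order. Neighbouring grades differed by less than their spread. SCC 24, labelled well differentiated, had Col17a1 at 3.37, and without it the poor minus well difference of Col17a1 was -0.24, against 0.30 ± 0.81 with it.

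By the p53 label 0 members passed, against 0.236% of all tested probe sets (0.189% higher, 0.0472% lower). Itga6 1422444_at lay at 8.57, 10.69 and 11.41 in p53 mutant mice and at 7.80, 10.13 and 11.09 in the others (lowest, median and highest), a difference of 0.62 ± 0.25 (limma, adjusted p = 0.312). The ranges overlapped widely. It was the 1 member with an unadjusted p under 0.05, as 11.1% of all had. With histology as a covariate 5 members had one, as did 9.39% of all, and within SCC mice 2, as did 10.2% of all. The median member difference was 0.27, and 0.09 without the 3 arrays on which the 3′ end of Gapdh most exceeded its 5′ end. For Itga6 1422444_at alone the difference was 0.87 ± 0.23 with histology as a covariate (limma, adjusted p = 0.117, 0.0276% of all called). Within SCC mice that probe set had 0.86 ± 0.28 (limma, adjusted p = 0.229, 0.11% of all called).

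Lama3 averaged 10.45 ± 1.45 in p53 mutant mice and 9.32 ± 2.34 in the others, a difference of 1.13 ± 0.65 (limma, adjusted p = 0.543). A label 1 tumour was present in 3 of 14 p53 mutant mice and 12 of 41 others. The p53 by histology interaction called 0 members and 0.0% of all, and 0 members had an unadjusted p under 0.05, as 6.07% of all had.

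By the nodal label 0 members and 0.0% of all passed, and 0 members had an unadjusted p under 0.05, as 4.58% of all had. The median member difference, node positive minus negative, was -0.22, and it was -0.07 without SCC 24, -0.06 without the 9 arrays of conflicting sex markers and -0.35 without the 3 arrays of largest Gapdh difference. Within SCC mice Col17a1 lay at 3.37, 10.58 and 11.33 in 10 node-positive and at 8.53, 10.89 and 11.28 in 14 node-negative mice, a difference of -1.42 ± 0.69 (limma, adjusted p = 0.539). Of the 10 node-positive mice 3 lay below every node-negative one, and the lowest of them was that of SCC 24. Without SCC 24 the Col17a1 difference was -0.77 ± 0.49 (limma, adjusted p = 0.829). Itgb4 lay at 6.92, 9.75 and 10.23 in node-positive and at 9.41, 9.98 and 10.70 in node-negative SCC mice, a difference of -0.82 ± 0.33 (limma, adjusted p = 0.502). Within SCC mice 4 members had an unadjusted p under 0.05, as 9.24% of all had, and without SCC 24 1 member did, as 6.03% of all did. A label 1 tumour was present in 3 of the 10 node-positive and 1 of the 14 node-negative mice.

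Within spindle mice Lama3 lay at 9.65 to 10.81 in 4 node-positive and at 3.23 to 11.68 in 5 node-negative mice, a difference of 2.76 ± 1.66 (limma, adjusted p = 0.995), and Col17a1 had 1.95 ± 1.61 (adjusted p = 0.995). Both ranges overlapped. Leaving out each of the 9 mice in turn moved the Lama3 difference to between 1.67 (without spindle 14) and 3.79 (without spindle 1), that of Col17a1 to between 1.08 (without spindle 14) and 2.83 (without spindle 1), and the median member difference of 0.58 to between 0.02 (without spindle 2) and 1.20 (without spindle 1). The nodal by histology interaction, the test of whether the nodal difference is itself different in spindle carcinomas and SCCs, called 0 members and 0.0% of all. It was 3.81 ± 1.60 for Lama3, 3.37 ± 1.56 for Col17a1, 3.09 ± 1.50 for Lamb3 and 1.80 ± 0.81 for Itgb4 (limma, adjusted p = 0.773 each). 6 members had an unadjusted p under 0.05, as 6.42% of all had. That count rests on single mice. It was 0 without spindle 14, 1 without spindle 2, spindle 5, spindle 10 or spindle 12, 2 without SCC 24 and 1 without the 3 arrays of largest Gapdh difference. The median member interaction of 1.20 moved to between 0.63 (without spindle 2) and 1.82 (without spindle 1).

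**Figure D5:**
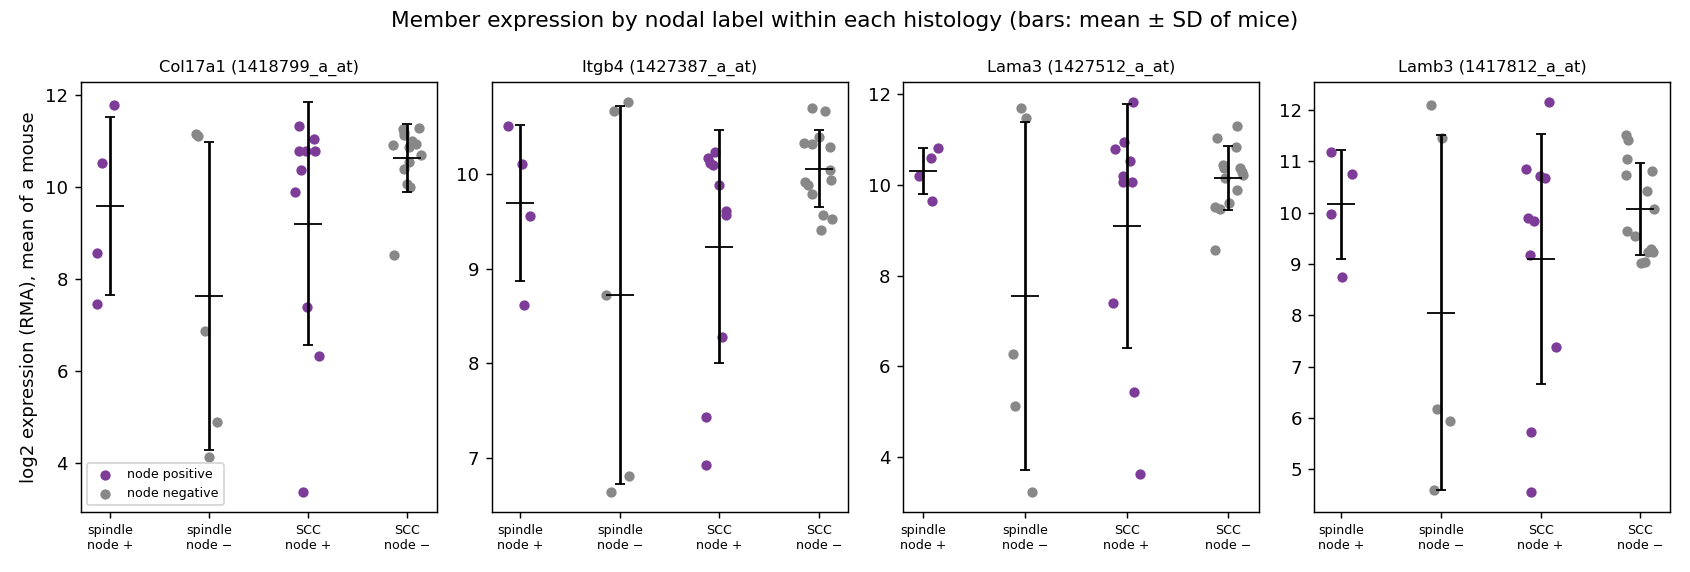
Log2 expression (y axis, RMA, mean of a mouse) of Col17a1, Itgb4, Lama3 and Lamb3 in spindle and SCC mice with positive or negative nodes (x axis), with points for mice and bars for mean ± SD. Lama3 lies at 9.65 to 10.81 in the 4 node-positive and 3.23 to 11.68 in the 5 node-negative spindle mice.

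In the 7 mice without a histology label Col17a1 lay at 6.53, 10.77 and 11.53 and Lama3 at 6.25, 11.25 and 11.98 (lowest, median and highest). The lowest mouse for both was that of tumour 8. The 3′ minus 5′ difference of Gapdh, a sign of RNA degradation, lay at -0.17 to 0.54 in spindle carcinomas and -0.07 to 1.85 in SCCs, and without the 3 arrays of largest difference 12 members were still called in spindle minus SCC.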

How the data were processed

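Total RNA of 60 carcinoma samples was hybridised to Affymetrix mouse genome arrays, 1 sample an array. The authors deposited log2 expression values made with RMA, which corrects background, quantile-normalises the arrays together and summarises the probes of a set. The RMA version and a genome build are not given in the sources used here. Quantile normalisation would take out a shift shared by most genes. Array medians lay at 4.43 to 4.56. Arrays give no read depth, so their number limits the precision.

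The 45101 probe sets were named from the platform annotation (34958 with 1 symbol, 932 with several, 9211 with none), and 34754 matched the RefSeq gene table of GRCm38.p6. Groups came from the submitters' labels. The mouse was the replicate, and its tumours were averaged. The labels do not say how tumours were dissected, so p-values measure the spread between these mice. Models were fitted with limma 3.58.1 (lmFit and eBayes, R 4.3.3) on the 25408 probe sets over the array median on at least 8 arrays, with 64 control probe sets left out. P-values were adjusted by Benjamini-Hochberg over all of them, with a threshold of 0.05. Scripts were tested on simulated data with known differences. Tables and figures used Python 3.11.15, pandas 2.3.3, NumPy 2.4.6 and matplotlib 3.10.9.

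The members and the gene lists were chosen with earlier results of these data known. All member probe sets were described, and of each list up to 4 genes each way with the largest spindle minus SCC difference past the threshold were named, with Plec and Cd151 named in any case. Col7a1 was named after its values were seen. The 10 genes most and 5 least correlated with the mean of the members were named over 55 mice and over 35 SCC mice, and the 3 most like single member probe sets. The members themselves were left out of these lists. The fits within tumor_class, the p53 fit within spindle mice, the fits without SCC 24 and the tests of pairs of probe sets were added after the data were seen. Other settings changed the filter, the probe sets of a gene, the scaling, the covariates and the arrays used.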

Additional observations from a re-analysis of the deposited data

Results flagged for a closer look

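Single mice far from the rest of their group were looked for in 104 combinations of a probe set and a group of 4 to 10 mice. This found 12. A rate by chance of about 1 in 20 would hold for independent combinations. These probe sets and groups share mice, so no excess over chance is read from the count. Of the 12, 6 belong to 1 poorly differentiated tumour, SCC 21. It was lowest of the 9 poorly differentiated SCC mice for Col17a1 (6.33, with the nearest mouse at 9.67), Dst 1421117_at (5.67, nearest 8.44), Dst 1450119_at (4.79, nearest 8.11), Itga6 1422444_at (7.80, nearest 9.64), Itga6 1422445_at (8.27, nearest 10.04) and Lama3 1427512_a_at (5.45, nearest 9.61). SCC 21 carries tumor_class label 1 and its array nearly matches that of SCC 22, from another mouse (r = 0.98).

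Tumour 8 without a histology label was lowest of its 7 mice for Itga6 1422445_at (8.71, nearest 10.05), Itgb4 (6.68, nearest 9.75) and Itga3 1460305_at (4.89, nearest 6.68). Among the 4 p53 mutant spindle mice, spindle 6 was lowest for Dst 1423626_at (6.77, nearest 8.56), and the mouse of spindle 8 and spindle 9 was lowest for Itga6 1422445_at (9.49, nearest 10.32). Among the 8 p53 mutant SCC mice, SCC 26 was lowest for Itga6 1422444_at (9.77, nearest 10.65).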

How the results depend on the processing

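No paired analysis was possible because the tumour numbers only name tumours within a group and tie no mouse of 1 group to a mouse of another. In spindle minus SCC, 5617 probe sets and 12 members were called. With 1 probe set per gene these were 3391 and 6, with probe sets averaged per gene 3279 and 6, within tumor_class label 2 1 and 0, and within label 1 0 and 0. Fewer features or tumours enter these settings. In spindle minus poorly differentiated SCC, 0 were called, against 3 with 1 probe set per gene, 8 with the mean of probe sets, 48 without SCC 24 and 708 (8 members) without the 4 near-identical arrays.

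By the p53 label 60 were called, against 2 with no filter, 36 with 1 probe set per gene, 22 with the mean of probe sets, 3 with mouse as a random effect, 28 at a common 75th percentile, 21 after quantile normalisation again, 34 with origin as a covariate, 1 without the 9 arrays of conflicting sex markers, 1 without the near-identical arrays, 19 without the 3 arrays of largest Gapdh difference, 7 with histology as a covariate, 28 in SCC mice, 5 in SCC mice with grade as a covariate and 0 in spindle mice. Members called stayed at 0 throughout.

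Signs turned within tumor_class in spindle minus SCC. Within label 2 the differences were 0.44 for Col17a1, 0.45 for Dst 1421117_at, 0.18 for Dst 1450119_at, 0.44 for Itgb4, 0.0283 for Itga3 1421997_s_at, 0.0320 for Itga3 1455158_at, 0.20 for Lama3 and 0.87 for Lamb3. Within label 1 they were -0.17 for Dst 1423626_at, 0.11 for Dst 1450119_at, 0.76 for Itga6 1422444_at, 0.75 for Itga6 1422445_at, 0.20 for Itga3 1460305_at, 1.53 for Lama3 and 0.22 for Lamb3. Poor minus well SCC turned to -0.28 for Col17a1 without the 9 arrays of conflicting sex markers and to -0.24 without SCC 24. Node positive minus negative for Dst 1423626_at was 0.50 over all mice, and within spindle mice it ran from -0.36 to 0.36 when each mouse was left out in turn, with -0.026 without spindle 1, -0.19 without spindle 11 and -0.36 without spindle 6. The cause of these changes was not tested. Of the other member values, 545 kept their sign and side of the threshold, 22 lost the threshold and 12 gained it.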

Other observations

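Taken one by one, the members had partly different nearest genes over the 55 mice (Pearson r, a description over shared arrays). Col17a1 was most like Trp63 (0.97), Krt5 (0.97) and Mpzl2 (0.96). Itgb4 was most like Tns4 (0.89), Tgfa (0.88) and Plek2 (0.87), and its partner Itga6 (1422445_at) most like Tns4 (0.86), Fam83g (0.85) and Efnb1 (0.85). Tns4, a tensin of focal adhesions, was thus near both integrin subunits. Itga3 (1455158_at) was most like Plch2 (0.90), Tgfa (0.90) and Pak6 (0.90). Lama3 was most like Plek2 (0.90), Tgfa (0.88) and Sfn (0.88), and Lamb3 most like Inava (0.90), Ntf5 (0.90) and Nuak2 (0.90). The nearest genes named for Lama3 and for Lamb3 were different, while Lama3 and Lamb3 themselves had 0.90. Genes further down were not compared. Dst 1450119_at was most like F11r (0.93), Hook1 (0.93) and Ptprf (0.92), of which F11r encodes a tight junction protein.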
